A study of Mus musculus with 16 samples.

Results

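The TAM receptor kinases Tyro3, Axl and Mertk and the genes that work with them in the uptake of apoptotic cells were followed in CD11b+ brain cells of 4 mouse genotypes. They were taken by gene symbol from the table of read counts: 3 receptor kinases (Axl, Mertk, Tyro3), the bridging proteins Gas6, Pros1 and Mfge8, and the uptake receptors Timd4, Stab1, Lrp1 and Megf10, which makes 10 genes of the 55385 rows. RNA was sequenced from CD11b+ cells that magnetic beads had pulled from brain suspensions of mice aged 20 weeks, after removal of the meninges and choroid plexus. The paper lists female 5xFAD mice among the animals it crossed to breed these genotypes. Each genotype had 4 libraries. WT mice (titled Control in the labels) carried neither change, Card9-/- mice lacked the immune signaling adaptor CARD9 from the germline in every cell, 5xFAD mice carried human transgenes with familial Alzheimer's disease mutations, which neurons express from a Thy1 promoter, and Card9-/- 5xFAD mice carried both. The comparisons asked how the transgenes change these genes with and without Card9, and how the Card9 deletion changes them with and without the transgenes.

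Cells that die by apoptosis expose phosphatidylserine on their outer membrane. GAS6 and protein S (encoded by Pros1) bind this lipid through a domain that needs vitamin K-dependent carboxylation and at the same time bind a TAM kinase on the phagocyte, so that the receptor is activated where a dead cell is attached. MFGE8 links phosphatidylserine to integrins in a similar way, TIM-4 (Timd4) and stabilin-1 (Stab1) bind the lipid directly, and LRP1 and MEGF10 act as engulfment receptors. In the brain, microglia clear dead neurons and synapses by this route, MERTK is a well known marker of resting microglia and AXL is known as a receptor that activated microglia gain.

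Libraries held 2970148 to 19333325 reads assigned to genes. Levels are given in CPM, read counts scaled to a common library total after correction of the library sizes with the TMM method, and a number after a genotype names the replicate. All 10 microglia markers were detected in every library, with a summed level of 16250 to 33350 CPM, and 0 of these 10 markers passed the test in any comparison. The libraries of lowest microglia marker sum within each genotype were WT 1 (16660 CPM), Card9-/- 4 (19050 CPM), 5xFAD 1 (16250 CPM) and Card9-/- 5xFAD 4 (18970 CPM). Those 4 libraries also held the highest summed levels of 6 neutrophil markers within their genotype (3447, 6116, 1950 and 5718 CPM) and of 6 choroid plexus and ependymal markers (1611, 2502, 1333 and 1129 CPM, nearly all of it Ttr). Counts of called genes are therefore also given without these 4 libraries. Reads on Card9 did not separate the genotypes (29.1 ± 8.37 CPM in Card9-/- against 36.9 ± 16.3 CPM in WT, SD, n = 4 each), so the counts do not check the deletion and the libraries are called Card9-/- by their labels. In bulk samples, fewer cells of a type and less RNA per cell cannot be told apart.

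Of the 10 genes, 8 passed the filter on low counts and were tested. With the transgenes, Axl rose in both Card9 backgrounds, 7.97-fold and 6.62-fold as fitted, while its sister kinase Mertk did not pass the test in either. When the transgene effect was averaged over both Card9 backgrounds, Stab1 and Timd4 fell to 0.458 and 0.457 of their level as fitted. Neither of the ligands Gas6 and Pros1, nor Mfge8 or Lrp1, passed the test. The Card9 deletion changed none of the 8 genes at a false discovery rate (FDR) of 0.1.

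In 5xFAD against WT, 1 of the 8 tested genes passed an FDR of 0.1 (edgeR quasi-likelihood test, Benjamini-Hochberg over 14513 genes), where 2.09% of all tested genes did. In Card9-/- 5xFAD against Card9-/-, 1 of 8 passed where 1.97% of all genes did. For the transgene effect averaged over both Card9 backgrounds, which uses the same 16 libraries, 3 of 8 passed where 11.3% of all genes did. The median log2 fold change of the 8 genes was -0.36, -0.28 and -0.33 in these 3 comparisons, beside -0.15 in each for all genes tested. Without the 4 libraries of lowest microglia marker sum, the genes that passed were Axl and Timd4 in 5xFAD against WT (7.97% of all genes), Axl, Mfge8, Stab1 and Timd4 in the Card9-/- background (16.7%) and these same 4 in the average (34.5%), with the directions described below. The CPM ranges of the libraries did not overlap for 2 of the 8 genes in 5xFAD against WT (8.04% of all genes), for 3 of 8 in the Card9-/- background (7.01%), and for 2 of 8 between all 8 transgenic and all 8 other libraries (1.66%).

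**Figure D1:**
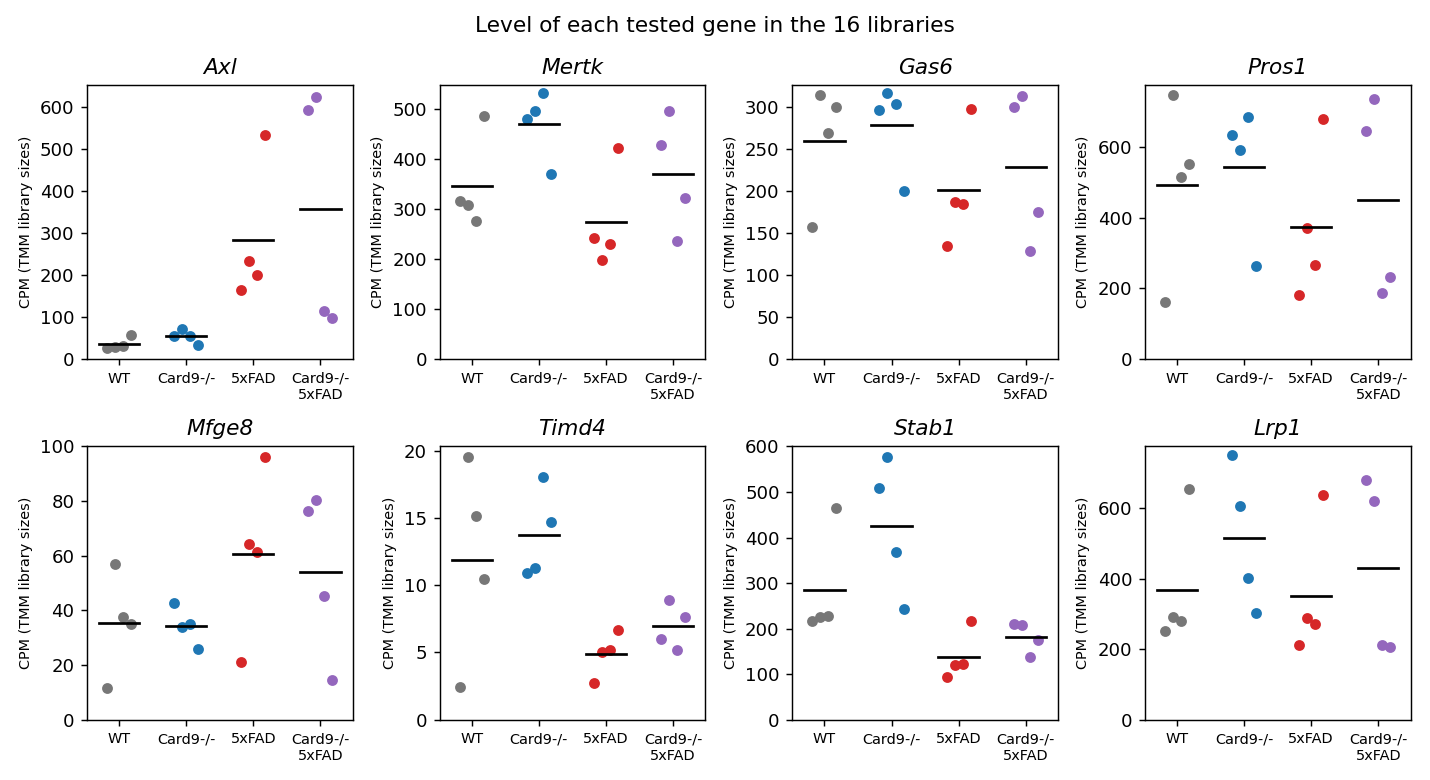
Level of the 8 tested genes in each of the 16 libraries, in CPM on a linear axis from 0; each point is 1 library, ordered within a genotype by replicate number, and the bar is the mean of 4. Axl stays at or below 71.3 CPM in the 8 libraries without the transgenes and at or above 97.7 CPM in the 8 with them, while Mertk, Gas6, Pros1 and Lrp1 overlap between genotypes.

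Axl encodes the TAM kinase that binds GAS6 and not protein S. Its level was 25.4, 28.8, 31.0 and 56.8 CPM in the WT libraries and 55.5, 71.3, 55.8 and 32.7 CPM in the Card9-/- libraries. In 5xFAD it was 165, 233, 200 and 533 CPM, and in Card9-/- 5xFAD it was 593, 623, 114 and 97.7 CPM (replicates 1 to 4 in each case). Every transgenic library was above every library without the transgenes, and within Card9-/- 5xFAD the lower of libraries 1 and 2 was 5.2 times as high as the higher of libraries 3 and 4. The fitted log2 fold change was 2.99 ± 0.61 (SE) in 5xFAD against WT (FDR = 0.0167, edgeR) and 2.73 ± 0.60 in Card9-/- 5xFAD against Card9-/- (FDR = 0.0348), which are folds of 7.97 and 6.62. Averaged over both backgrounds it was 2.86 ± 0.43 (FDR = 0.000582).

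The Axl call in 5xFAD against WT and in the average held without any single library, with FDR values of 0.00598 to 0.0803 and of 0.000137 to 0.00264. In the Card9-/- background it was lost without Card9-/- 1 (FDR = 0.12), without Card9-/- 3 (FDR = 0.107), without Card9-/- 5xFAD 1 (log2 fold change 2.37, FDR = 0.118) or without Card9-/- 5xFAD 2 (2.32, FDR = 0.116), and when only the 2 groups compared were fitted (2.74, FDR = 0.178).

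Mertk, the TAM kinase of resting microglia and other tissue macrophages, had 315, 307, 275 and 485 CPM in WT and 479, 496, 531 and 370 CPM in Card9-/-. It had 241, 198, 230 and 422 CPM in 5xFAD and 427, 495, 235 and 321 CPM in Card9-/- 5xFAD. The ranges of all 4 genotypes overlapped, and libraries WT 4 and 5xFAD 4 stood above the others of their genotype. The transgene differences were -0.34 ± 0.31 in 5xFAD against WT (FDR = 0.741, edgeR) and -0.34 ± 0.31 in the Card9-/- background (FDR = 0.729), and the average was -0.34 ± 0.22 (FDR = 0.382).

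Tyro3, the kinase that in the brain is mostly neuronal, was at the limit of detection and was not tested. It had 6 counts over the 4 WT libraries, 7 in Card9-/-, 7 in 5xFAD and 3 in Card9-/- 5xFAD, and no library had more than 5 counts. No fold is given for counts this low.

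The balance of the 2 detected receptors moved with the transgenes. Within each library, the ratio of Axl to Mertk in CPM per kilobase of exon does not depend on library size. It was 0.0693, 0.0806, 0.0971 and 0.101 in WT and 0.0997, 0.124, 0.0906 and 0.0762 in Card9-/-. In 5xFAD the same ratio was 0.59, 1.01, 0.748 and 1.09, and for Card9-/- 5xFAD it was 1.2, 1.09, 0.419 and 0.262. Mertk reads per kilobase thus exceeded Axl reads by a factor of 8.06 or more in every library without the transgenes, whereas Axl was at or above Mertk in 4 of the 8 transgenic libraries. Card9-/- 5xFAD 3 and 4 had the lowest ratios of the transgenic libraries and still lay above the 0.124 that was highest without the transgenes. These ratios are a description and were given no test.

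**Figure D2:**
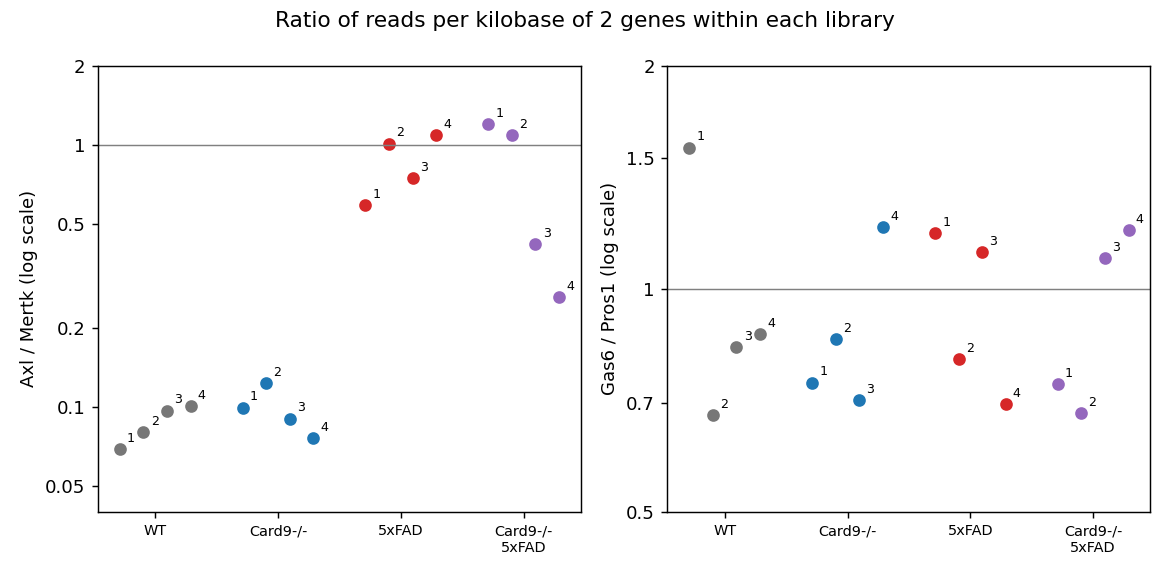
Ratio of Axl to Mertk (left) and of Gas6 to Pros1 (right) in reads per kilobase within each library, on log axes; each point is 1 library with its replicate number and the line marks equal levels. The Axl to Mertk ratio lies at 0.0693 to 0.124 in the 8 libraries without the transgenes and at 0.262 to 1.2 in the 8 with them, while the Gas6 to Pros1 ratio overlaps between all 4 genotypes.

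Axl lies on the minus strand of chromosome 7 (GRCm38, 25757273 to 25788705), Mertk on the plus strand of chromosome 2 (128698956 to 128802894) and Stab1 on the minus strand of chromosome 14 (31139013 to 31168641). The 250 bases before the RefSeq start of these genes are shown because they set the gene that rose, the sister kinase that did not pass and the more abundant of the 2 genes that fell side by side. The sequences come from RefSeq, build GRCm38.p6, are written 5′ to 3′ on the strand of the gene, and capitals mark every match to the PU.1 core GAGGAA or the GC box GGGCGG on either strand.
Axl, chr7:25788734-25788983, minus strand: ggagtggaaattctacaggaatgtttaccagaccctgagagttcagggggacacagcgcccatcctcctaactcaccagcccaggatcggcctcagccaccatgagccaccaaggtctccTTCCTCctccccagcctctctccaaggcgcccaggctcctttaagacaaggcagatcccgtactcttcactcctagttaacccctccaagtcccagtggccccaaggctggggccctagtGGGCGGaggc
Mertk, chr2:128698665-128698914, plus strand: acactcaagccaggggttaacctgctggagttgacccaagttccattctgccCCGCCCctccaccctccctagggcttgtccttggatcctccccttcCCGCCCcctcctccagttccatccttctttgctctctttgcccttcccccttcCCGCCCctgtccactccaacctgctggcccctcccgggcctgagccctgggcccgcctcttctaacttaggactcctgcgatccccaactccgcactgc
Stab1, chr14:31168642-31168891, minus strand: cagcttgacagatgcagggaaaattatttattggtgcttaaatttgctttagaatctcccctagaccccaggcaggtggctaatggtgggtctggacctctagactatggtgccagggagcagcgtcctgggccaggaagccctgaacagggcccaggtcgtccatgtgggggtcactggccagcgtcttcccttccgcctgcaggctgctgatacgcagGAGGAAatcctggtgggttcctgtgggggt

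The letters GAGGAA, which the myeloid factor PU.1 prefers, were found 1 time in the Axl window, 1 time in the Stab1 window and 0 times in the Mertk window. Of 32851 RefSeq windows of this length, 23.3% hold them. GGGCGG was found 1 time in Axl, 3 times in Mertk and 0 times in Stab1, and 32.7% of the windows hold it. The E-box CACGTG (6.0% of windows) and the AP-1 letters TGANTCA (6.7% of windows) were in none of the 3. No matches overlapped. A window was found for 9 of the 10 genes, and that of Timd4 held none of the 4 motifs. Such a match is a string of letters, not a site that was shown to be bound.

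Gas6, which encodes the ligand that all 3 TAM kinases bind, had 156, 314, 268 and 299 CPM in WT, 296, 316, 303 and 199 CPM in Card9-/-, 134, 186, 185 and 297 CPM in 5xFAD, and 300, 312, 128 and 174 CPM in Card9-/- 5xFAD. Pros1, the source of protein S, a ligand of Tyro3 and Mertk, had 162, 748, 516 and 552 CPM in WT, 636, 593, 687 and 264 CPM in Card9-/-, 181, 373, 265 and 681 CPM in 5xFAD, and 647, 737, 187 and 233 CPM in Card9-/- 5xFAD. Both ligands were lowest in WT 1, Card9-/- 4 and 5xFAD 1, the libraries of lowest microglia marker sum, and in Card9-/- 5xFAD 3, and the genotypes overlapped. The averaged transgene difference was -0.33 ± 0.24 for Gas6 (FDR = 0.452, edgeR) and -0.34 ± 0.38 for Pros1 (FDR = 0.64).

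The 2 ligands kept close to each other across libraries. In CPM per kilobase, the Gas6 to Pros1 ratio averaged 0.982 ± 0.388 in WT, 0.88 ± 0.229 in Card9-/-, 0.953 ± 0.239 in 5xFAD and 0.931 ± 0.258 in Card9-/- 5xFAD (SD, n = 4). It was above 1 in 6 libraries (WT 1 with 1.55, Card9-/- 4 with 1.21, 5xFAD 1 and 3 with 1.19 and 1.12, Card9-/- 5xFAD 3 and 4 with 1.1 and 1.2) and between 0.675 and 0.869 in the other 10. These 6 include the 4 libraries of lowest microglia marker sum, and their part in the ratio was not tested.

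Mfge8, the bridging protein for integrins, had 11.8, 57.1, 37.7 and 35.2 CPM in WT and 42.6, 34.0, 35.2 and 25.8 CPM in Card9-/-. It had 21.1, 64.2, 61.5 and 96.0 CPM in 5xFAD and 76.3, 80.6, 45.4 and 14.4 CPM in Card9-/- 5xFAD. In each genotype its lowest value was that of the library with the lowest microglia marker sum, and the ranges overlapped. The averaged transgene difference was 0.72 ± 0.37 and did not pass (FDR = 0.262, edgeR). Without those 4 libraries it was 0.84 ± 0.20 and passed (FDR = 0.0091, edgeR), where 34.5% of all genes passed. With 1 surrogate variable in the model it also passed (0.68 ± 0.21, FDR = 0.023), where 5727 of 14513 genes did. The 4 libraries left out held the lowest Mfge8 value of each genotype, so that fit cannot decide whether Mfge8 rose. Astrocytes also make Mfge8, and of 7 tested astrocyte markers 2 rose in the average, Gfap (log2 fold change 3.57, FDR = 0.00043) and Aqp4 (1.07, FDR = 0.0776), both at group means of 0.4802 to 10.25 CPM. Slc1a3, by far the most abundant of them, was at 238.2 and 218 CPM in WT and Card9-/- and at 159.9 and 174.2 CPM in 5xFAD and Card9-/- 5xFAD, and did not pass (-0.45, FDR = 0.165), nor did Gja1 (-1.44, FDR = 0.105). The median log2 fold change over the 7 tested astrocyte markers was 0.45. Slc1a2 had means of 6.881 (WT), 8.904 (Card9-/-), 16.15 (5xFAD) and 18.11 CPM (Card9-/- 5xFAD). The summed level of the 8 astrocyte markers, of which Slc1a3 was the largest part, was 235.3 to 337 CPM in WT and 190.2 to 348.4 CPM in Card9-/-. In 5xFAD the sum was 187.8 to 239.5 CPM and in Card9-/- 5xFAD 171.8 to 321.2 CPM, so that it mostly follows that 1 gene. Over the 16 libraries, which share genotypes, depth and cell composition, the log2 levels of Mfge8 and of this sum had a Pearson's r of -0.789, and of -0.763 after subtraction of the group means. The part of astrocytes in the Mfge8 values was not tested.

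Stab1, a scavenger receptor of macrophages and sinusoidal endothelium that binds phosphatidylserine, had 218, 225, 228 and 464 CPM in WT and 509, 577, 368 and 242 CPM in Card9-/-. It had 93.6, 121, 121 and 218 CPM in 5xFAD and 210, 207, 137 and 175 CPM in Card9-/- 5xFAD. Every transgenic library was below every other library, although by a hair, since the highest transgenic value was 217.6 CPM and the lowest value without the transgenes 217.8 CPM. The difference was -1.04 ± 0.36 in 5xFAD against WT (FDR = 0.245, edgeR) and -1.22 ± 0.36 in the Card9-/- background (FDR = 0.139), and neither passed. Averaged over both, Stab1 fell by 1.13 ± 0.26 on the log2 scale (FDR = 0.0143), and the FDR stayed between 0.00553 and 0.0416 without any single library. Without WT 4 the difference in 5xFAD against WT was -0.69.

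Timd4, which encodes the phosphatidylserine receptor TIM-4 of resident macrophages, was a low gene with 14 to 304 counts per library. It had 2.47, 19.5, 15.1 and 10.5 CPM in WT and 10.9, 11.3, 18.02 and 14.7 CPM in Card9-/-. It had 2.73, 5.07, 5.22 and 6.67 CPM in 5xFAD and 6.02, 8.90, 5.21 and 7.61 CPM in Card9-/- 5xFAD. WT 1 was below every transgenic library, and all other libraries without the transgenes were above all transgenic ones. The difference was -1.28 ± 0.47 in 5xFAD against WT (FDR = 0.279, edgeR) and -0.99 ± 0.46 in the Card9-/- background (FDR = 0.405), and neither passed. In the average Timd4 fell by 1.13 ± 0.33 on the log2 scale (FDR = 0.051). That call was lost without WT 2 (FDR = 0.104) and without Card9-/- 5xFAD 3 (FDR = 0.103). Without WT 1 the difference in 5xFAD against WT was -1.61 ± 0.35 and passed (FDR = 0.0335).

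**Figure D3:**
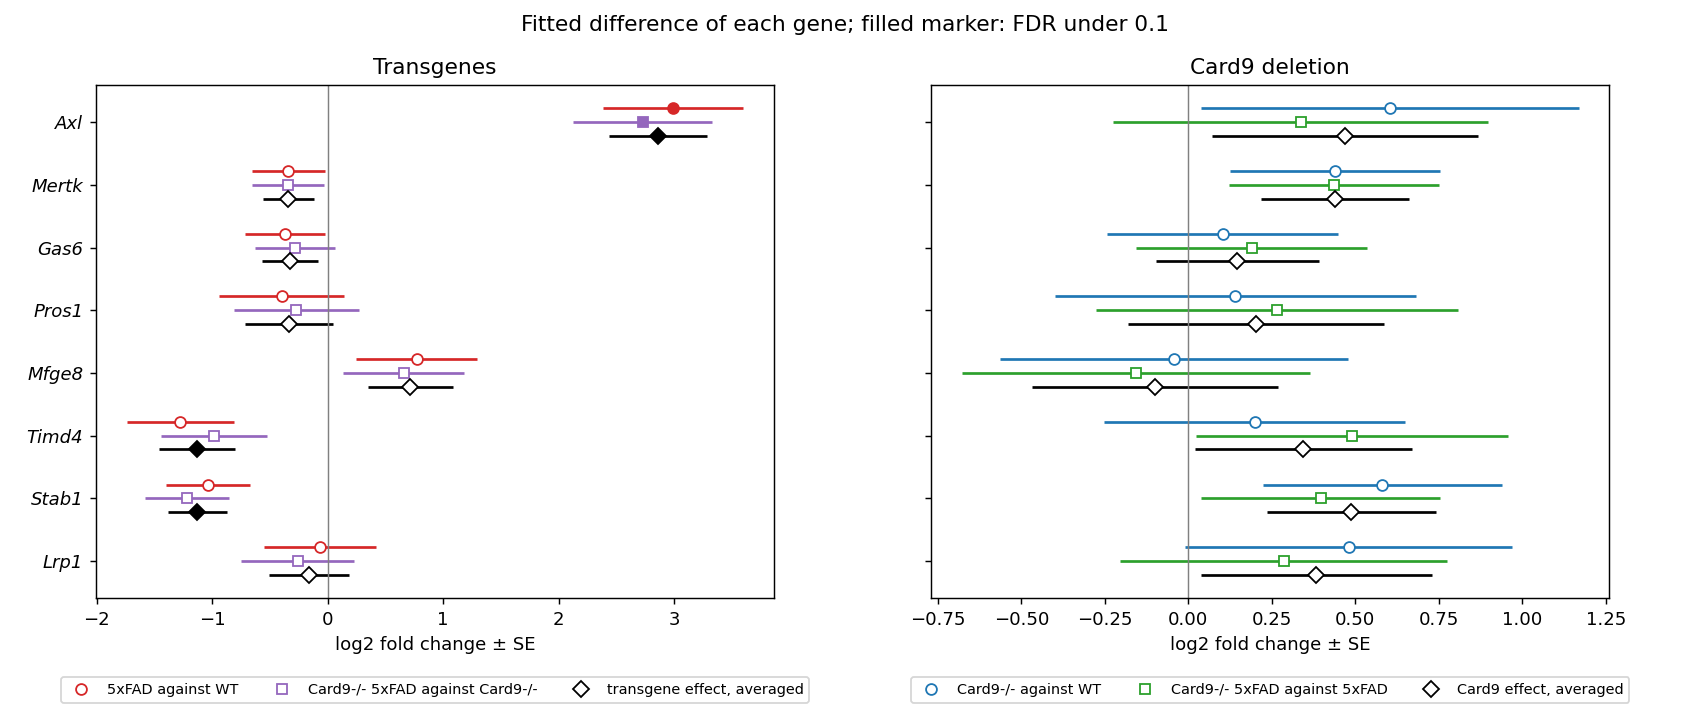
Fitted log2 fold change with its SE for the 8 tested genes, for the transgenes (left) and for the Card9 deletion (right); marker shape and colour give the comparison and a filled marker an FDR under 0.1. Axl is filled in all 3 transgene comparisons and Stab1 and Timd4 in the averaged one, and no marker is filled for the Card9 deletion.

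Stab1 and Timd4 are also known from macrophages at the borders of the brain, and markers of those cells moved in the same direction. Of 10 border-associated macrophage markers tested, 5 fell in the averaged transgene effect (Mrc1, Lyve1, Cd163, F13a1 and Colec12, with log2 fold changes of -1.04 to -1.36) and 0 rose, and the median over the 10 was -0.83. Of all 14513 tested genes 11.3% passed there, 831 of them lower. Of 6 tested monocyte markers 2 fell and 0 rose (median -0.79), and of 6 neutrophil markers 2 fell and 0 rose (median -0.45). Among 7 tested astrocyte markers, 2 rose and 0 fell. The summed level of the 10 border-associated macrophage markers was 1270 to 1820 CPM in WT and 1125 to 2022 CPM in Card9-/-. It was 698.3 to 948.5 CPM in 5xFAD and 472.1 to 1892 CPM in Card9-/- 5xFAD, and none of them was at 0 in any library. Within each genotype this sum was highest, and Axl lowest, in the library of lowest microglia marker sum (WT 1, Card9-/- 4, 5xFAD 1 and Card9-/- 5xFAD 4). The part of those 4 libraries in the correlations below was not tested. Pf4 was the largest part of the sum, with means of 385.2 (WT), 399 (Card9-/-), 259.2 (5xFAD) and 391.6 CPM (Card9-/- 5xFAD). It reached 1070 CPM in 1 library and was not among the 5 markers that fell. The part of the border-associated macrophage markers in the Stab1 and Timd4 results was not tested. Across the 16 libraries the log2 levels of Axl and of the marker sum had a Pearson's r of -0.882, and those of Stab1 and Timd4 had 0.273 and 0.283. After subtraction of the group means the values were -0.838, -0.492 and -0.166, so that for Stab1 and Timd4 the sign within genotypes was opposite to that across them. These are descriptions over libraries that share genotypes, depth and cell composition.

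**Figure D4:**
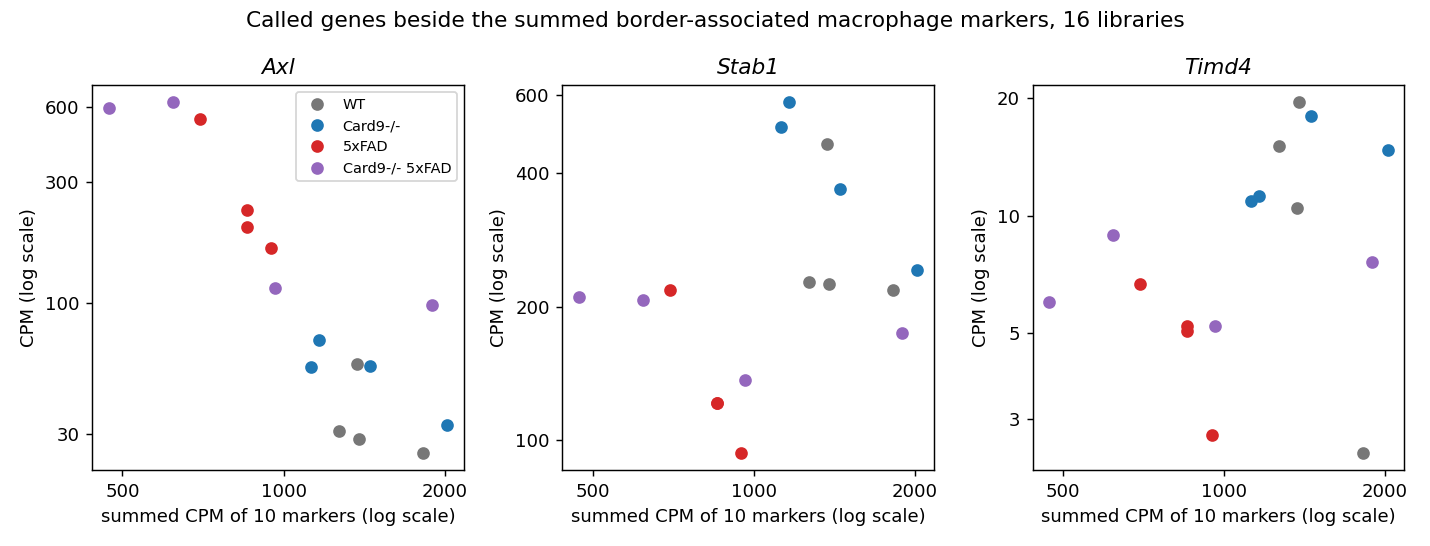
Level of Axl, Stab1 and Timd4 in CPM against the summed CPM of 10 border-associated macrophage markers, both on log axes; each point is 1 library, coloured by genotype. Axl is high where the marker sum is low. Library Card9-/- 5xFAD 4 lies apart at a marker sum of 1892 CPM with Axl at 97.7 CPM, Stab1 at 175 CPM and Timd4 at 7.61 CPM. Within each genotype, the library of highest marker sum is that of lowest microglia marker sum.

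Lrp1, the large endocytic receptor for APOE and many other ligands, had 251, 291, 280 and 655 CPM in WT and 751, 607, 402 and 302 CPM in Card9-/-. It had 211, 290, 273 and 637 CPM in 5xFAD and 681, 620, 212 and 207 CPM in Card9-/- 5xFAD. Libraries of 1 genotype differed by a factor of up to 3.3, and the averaged transgene difference was -0.16 ± 0.35 (FDR = 0.813, edgeR). Megf10, an engulfment receptor of astrocytes, had 4 counts over the WT libraries, 4 over the Card9-/- libraries and 0 in all 8 transgenic libraries, which together held 57890279 reads and allow a level of up to 0.0518 CPM, counting error only. The levels without the transgenes, 0.119 CPM in WT and 0.0887 CPM in Card9-/- over the pooled reads of each group, lay above that limit but rest on 4 counts each. Megf10 did not pass the filter on low counts and was not tested by edgeR.

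Per kilobase of exon, Pros1, Gas6 and Mertk were the most abundant of the 10 genes in all 4 genotypes, with group means of 91.8 to 133, 78.7 to 109 and 62.9 to 108 CPM per kilobase. Their ranges over the libraries overlapped within every genotype. In WT, Stab1 (27.6 ± 11.7) and Lrp1 (20.9 ± 10.8) followed, then Mfge8 (7.55 ± 3.95), Axl (7.05 ± 2.86) and Timd4 (5.47 ± 3.35), in CPM per kilobase (SD, n = 4). Within these 2 sets neighbours overlapped, and between Mertk and Stab1 and between Lrp1 and Mfge8 they did not. In 5xFAD and Card9-/- 5xFAD, Axl took the fourth place, with 56.2 ± 33.6 and 70.9 ± 57.7 CPM per kilobase, and its range overlapped that of Mertk. Stab1 went from the fourth place in WT to the sixth in both transgenic genotypes, where its range overlapped those of Lrp1 and Mfge8.

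The Card9 deletion was compared with and without the transgenes. In Card9-/- 5xFAD against 5xFAD, 0 of the 8 genes passed, with 0% of all genes passing (edgeR, 366 genes at an unadjusted p under 0.05, of which 0 were among the 8, and by DESeq2 2 genes on all libraries and 9 on only the groups compared). In Card9-/- against WT 0 of 8 passed, again with 0% of all genes (597 genes at an unadjusted p under 0.05, 0 of the 8 among them, and by DESeq2 5 genes on all libraries and 8 on only the groups compared). In the Card9 effect averaged over transgene status 0 of 8 passed, with 0.0276% of all genes (edgeR). There 1323 genes had an unadjusted p under 0.05, 0 of the 8 among them. DESeq2 on all libraries called 106 genes, but of only 2623 to which it gave an adjusted p. The largest differences among the 8 genes in that average were Stab1 with 0.49 ± 0.25 (FDR = 0.569, edgeR), Axl with 0.47 ± 0.40 (FDR = 0.693) and Mertk with 0.44 ± 0.22 (FDR = 0.565). For Mertk the value was 0.44 ± 0.31 in each transgene background. The median over the 8 genes was 0.36 beside 0.13 for all genes. A p that misses the threshold does not show that the deletion leaves these genes as they were.

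Whether the transgene effect itself differed with Card9 was tested as an interaction. None of the 8 genes passed (FDR = 1 for each, edgeR), with 0% of all genes passing (78 genes at an unadjusted p under 0.05, 0 of the 8 among them, and 1 gene by DESeq2). For Axl the difference between the 2 transgene effects was -0.27 ± 0.79 on the log2 scale, for Stab1 -0.18 ± 0.50 and for Timd4 0.29 ± 0.65. These errors are as large as the differences or larger.

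Around the 10 genes, 7 lists of other genes of the pathway were followed. Their counts in the averaged transgene effect stand beside 11.3% of all 14513 tested genes that passed there, 816 higher and 831 lower. Of 18 tested receptors and bridging proteins for apoptotic cells, 4 rose and 2 fell. Trem2, the lipid receptor of microglia, rose by a log2 fold change of 1.40 ± 0.22 (FDR = 0.000947, edgeR), from 1628 ± 198 CPM in WT to 4226 ± 1097 CPM in 5xFAD and from 1049 ± 292 CPM in Card9-/- to 2818 ± 995 CPM in Card9-/- 5xFAD (SD, n = 4). It also passed within each Card9 background. Cd300lf, a phosphatidylserine receptor, and C1qb, a part of the complement protein that tags dying cells, rose by 0.91 ± 0.23 and 0.80 ± 0.21, and C1qc rose by 0.75 ± 0.21. The scavenger receptors Cd36 and Scarf1 fell by 1.28 ± 0.28 and 1.17 ± 0.40 on the log2 scale. The median of the 18 was 0.12, beside -0.15 for all genes.

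Of 16 tested genes of the engulfment machinery that carries the signal to the actin skeleton, 0 rose and 3 fell in the average (11.3% of all genes passed), namely Vav3 (-1.62 ± 0.31), Elmo1 (-0.78 ± 0.26) and Trio (-0.76 ± 0.23). Vav3, a guanine nucleotide exchange factor, went from 7.04 ± 3.06 CPM in WT to 1.92 ± 0.94 CPM in 5xFAD (FDR = 0.0465 in that comparison, edgeR). The list's median was -0.41. In the small list of vitamin K-dependent carboxylation, on which GAS6 and protein S depend, Vkorc1, the vitamin K epoxide reductase, rose by 1.26 ± 0.29 (FDR = 0.0161), and the other 2 genes did not pass. Its level was 12.3 ± 6.94 CPM in WT, 6.22 ± 1.71 CPM in Card9-/-, 21.3 ± 4.78 CPM in 5xFAD and 20.6 ± 11.1 CPM in Card9-/- 5xFAD.

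The remaining lists are read against the same 11.3% of all genes. Of 12 tested genes of TAM signaling and receptor shedding, 1 rose and 1 fell. Ifnar2, a chain of the type I interferon receptor, rose (0.75 ± 0.21, FDR = 0.0485, edgeR), and the kinase subunit gene Pik3r1 fell (-0.57 ± 0.20, FDR = 0.0924). The other chain, Ifnar1, did not pass. Its group means were 66.9 CPM in WT, 94.1 CPM in Card9-/-, 50.6 CPM in 5xFAD and 61.7 CPM in Card9-/- 5xFAD. Of 22 genes of phagosome maturation and LC3-associated phagocytosis, 3 rose, namely the lysosomal nuclease Dnase2a (0.62 ± 0.15), the NADPH oxidase subunit Cyba (1.04 ± 0.30) and Map1lc3a (0.66 ± 0.22), and Uvrag fell (-0.50 ± 0.17). Of 12 genes of lipid sensing and efflux after uptake, Apoe rose (1.53 ± 0.24, FDR = 0.000822) and Tgm2 (-1.20 ± 0.24) and Pparg (-1.43 ± 0.31) fell. Of 11 find-me and do-not-eat-me genes, 0 rose and 3 fell, namely Pecam1 (-1.31 ± 0.24), Siglece (-1.16 ± 0.38) and Cd24a (-0.89 ± 0.29). Pecam1 is also 1 of the 8 endothelial and mural markers. Of the other 7, Pdgfrb fell in the same comparison (-1.70, FDR = 0.0683), and the other 6 did not pass, among them Flt1 with 0.73 (FDR = 0.492). In the averaged Card9 effect 0 genes passed in each of the 7 lists.

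**Figure D5:**
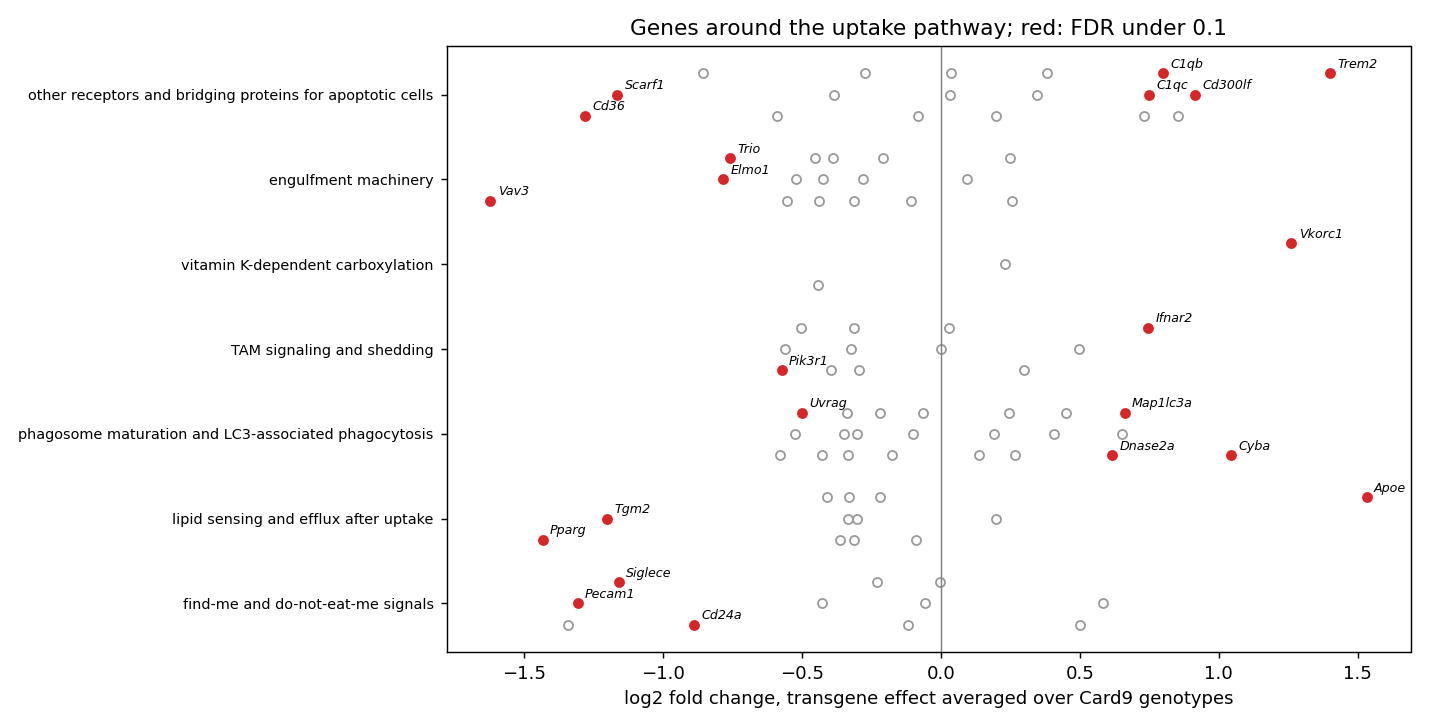
Log2 fold change of every tested gene of the 7 pathway lists in the transgene effect averaged over both Card9 backgrounds; each point is 1 gene, red and named where its FDR is under 0.1, and vertical offsets only separate points. Apoe (1.53) and Trem2 (1.40) lie farthest to the right and Vav3 (-1.62) farthest to the left among the genes that passed.

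By the Pearson correlation of log2 CPM over the 16 libraries, the genes most like Axl among 14505 others included Ell2 (r = 0.972) and Lrguk (0.967). Those most like Mertk were Adam10 (0.973), Cyth3 (0.972) and Hectd3 (0.972). Those most like Stab1 were Armh3 (0.978), Plxna4 (0.959) and Abl1 (0.959), and those most like Timd4 were Thoc1 (0.893), G3bp2 (0.891) and St7l (0.884). The libraries share genotype, depth and cell composition, so these values describe likeness and nothing more.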

How the data were processed

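The authors aligned the reads to the mouse genome mm10 with HISAT2, filtered them with SAMtools and counted reads per gene with HTSeq; the deposited values are whole-number counts per gene and library, not normalized. The annotation release and strand setting are not given in the sources used here, so reads of Mertk, Gas6, Stab1 and Lrp1, which each overlap a gene on the other strand, may include reads of that gene. The counts of all 16 libraries (4 groups of 4, grouped by GEO's labels) were fitted with edgeR 4.0.16 in R 4.3.3 (TMM, filterByExpr with a minimum count of 10, glmQLFit and glmQLFTest), and 14513 of 55385 genes were tested at an FDR of 0.1, the threshold of the study. The SE is the log2 fold change divided by the square root of F. The labels do not say that libraries came from separate animals, so p-values measure the spread between these libraries. Levels per kilobase use the exon length of the GENCODE annotation of GRCm38. Depth was 2970148 to 19333325 reads; limits for 0 counts take 3 counts and cover counting error only.

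The 10 genes, the pathway lists and the marker lists were chosen with earlier results of these data known. Named were all 10 genes, Card9, up to 4 genes of lowest FDR per pathway list, and the 3 genes most correlated with Axl, Mertk, Stab1 and Timd4, of which 1 is not reported here. The scripts were tested on simulated counts. No 2 libraries of a group agreed within sampling noise (over 24 pairs, chi-square divided by its degrees of freedom was at least 6.28). Alternatives were DESeq2 1.42.0, DESeq2 size factors in edgeR, other filters, only the groups compared, an FDR of 0.05, a replicate block, 1 surrogate variable (sva 3.50.0), and leaving out each library. Leaving out the 4 libraries of lowest microglia marker sum was added after seeing the data.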

Additional observations from a re-analysis of the deposited data

Results flagged for a closer look

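Of 32 sets of 4 libraries (8 tested genes in 4 genotypes), 2 held a library far from the other 3, at a distance that chance gives in about 1 of 20 sets. Stab1 was 464 CPM in WT replicate 4 and 218 to 228 CPM in the other WT libraries. Lrp1 was 655 CPM in WT replicate 4 and 251 to 291 CPM in the others. Axl (56.8 CPM) and Mertk (485 CPM) were also highest in that library among the WT libraries. Both flags come from this 1 library, and Stab1 and Lrp1 varied together within groups (Pearson's r of 0.869). They are therefore not separate observations, and the rate of 1 in 20, which holds for separate sets, cannot judge the 2 of 32. The flag was set where the gap to the next library, divided by the range of the 4, was over 0.829. In WT 4 this value was 0.82 for Axl and 0.808 for Mertk, just under that limit. In 5xFAD 4 it was 0.815 for both Axl and Lrp1.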

How the results depend on the processing

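The number of the 10 genes called in 5xFAD against WT was 1, with 304 of all genes called. It became 4 with 1 surrogate variable (2068 of all genes) and 2 without the 4 libraries of lowest microglia marker sum (1144). Leaving out 1 library gave 1 to 2 (2 without WT replicate 1, with 316 of all genes), where 164 to 386 of all genes were called. In the Card9-/- background the number was 1, with 286 of all genes called. By DESeq2 it became 2 on all libraries (812 of all genes) and 2 on the groups compared (433). By edgeR it became 0 on only the groups compared (96), 2 with 1 surrogate variable (2567) and 4 without the 4 libraries (2394). Leaving out 1 library gave 0 to 2, with 120 to 720 of all genes called. In the average it was 3 and stayed at 2 to 4. No alternative called any of the 10 genes in a Card9 comparison or the interaction. The number of all genes called in the average was 1647 and ranged from 920 at an FDR of 0.05 to 5727 with 1 surrogate variable.

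The labels do not say whether replicate numbers pair the libraries, and the main fit did not use them. Same-numbered libraries of different groups correlated unevenly in their deviations, at -0.71 to 0.734, and 15 of 24 pairs were over 0.1. With a replicate block, the numbers of the 8 tested genes called were 1, 1 and 3 in the transgene comparisons, the same as without it. Of all 14513 tested genes, 306, 340 and 1871 were called there. Axl had a log2 fold change of 2.79 in the average.

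Only differences of at most 0.337 in size that had not passed any threshold changed sign. Lrp1 in 5xFAD against WT was 0.0089 with DESeq2 size factors, 0.060 with a minimum of 10 counts everywhere, 0.0045 and 0.020 by DESeq2 on all libraries and on the groups compared, and 0.061 by edgeR on the groups compared. In Card9-/- against WT, Gas6 was -0.0092 with that minimum, Mfge8 was 0.065 with the replicate block and 0.19 with 1 surrogate variable, and Timd4 was -0.16 without the 4 libraries. With 1 surrogate variable Mfge8 was 0.0047 in the averaged Card9 effect, and the interaction was 0.0073 for Mertk and -0.0083 for Pros1. Without the 4 libraries it was 0.084 for Mfge8. Leaving out 1 library gave, for Lrp1, -0.30 to 0.37 in 5xFAD against WT and -0.32 to 0.052 in the average. In Card9-/- 5xFAD against 5xFAD it gave -0.077 to 0.65 for Axl, -0.084 to 0.52 for Pros1, -0.44 to 0.15 for Mfge8, -0.0092 to 0.38 for Gas6 and -0.032 to 0.55 for Lrp1. In Card9-/- against WT it gave -0.15 to 0.41 for Pros1, -0.33 to 0.28 for Mfge8, -0.080 to 0.23 for Gas6 and -0.14 to 0.54 for Timd4, and in the averaged Card9 effect -0.25 to 0.061 for Mfge8. For the interaction it gave -0.68 to 0.13 for Axl, -0.22 to 0.22 for Mertk, -0.22 to 0.52 for Pros1, -0.44 to 0.20 for Mfge8, -0.11 to 0.28 for Gas6, -0.63 to 0.16 for Lrp1, -0.54 to 0.044 for Stab1 and -0.056 to 0.62 for Timd4. The cause of these shifts was not tested. Tyro3 and Megf10 are limited by depth.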

Other observations

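Within genotypes the tested genes varied together from library to library. After subtraction of the group means, the log2 levels of Gas6 and Pros1 had a Pearson's r of 0.976 over the 16 libraries, Axl and Lrp1 of 0.933, and Stab1 and Lrp1 of 0.869. Across the libraries without that subtraction, Gas6 and Pros1 still had 0.967, whereas Axl and Lrp1 had 0.331 and Axl and Stab1 went from 0.72 within groups to -0.384. Within groups, Mfge8 (0.892), Pros1 (0.856) and Gas6 (0.786) followed the summed microglia markers most closely, and Mertk (0.385) least. These values describe libraries that share genotype, depth and cell composition.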
